A study of Mus musculus with 5 samples.

Results

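Cytosolic sulfotransferases are the enzymes of the Sult genes. They move a sulfate group from the activated donor PAPS onto small molecules such as oestrogens, phenols, catecholamines, thyroid hormone and cholesterol, which as a rule makes these molecules more soluble and, for hormones, unable to bind their receptors. Sulfatases can take the group off again, so the balance of both activities helps to set the local hormone supply of the uterus and other tissues. The family was examined in uteri of mice aged 15 days. Members were chosen by name, as every probe of the array whose listed gene name starts with SULT and a digit, together with older names of mouse Sult1c2. This gave 17 probes with 12 of the 31490 gene names of the array, among 45281 probes. Detected members were listed as SULT1A1, SULT1C2, SULT1D1, SULT2B1, SULT4A1 and SULT5A1, and are given below by their mouse symbols. No further probe carried an older name of Sult1c2. SULT1C1 is itself such an older name, according to the RefSeq gene table, so that the array's SULT1C1 probe may belong to either gene.

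The tested mice, called Dicer cKO, lost Dicer, which makes mature microRNAs by cutting their precursors, through Cre recombinase made at the progesterone receptor locus, so that deletion is limited to cells that express this receptor. The controls were labelled wild type. Both groups shared the mixed hybrid background C57BL/6J;129S5/Brd. Each sample was a pool of uteri read on 1 bead array, with 2 Dicer cKO pools (10 and 12) and 3 control pools (7, 9 and 11). The sources used here do not give how many uteri made a pool, whether all pools came from different animals, or whether the controls carried Cre or floxed alleles. Standard errors and p-values therefore rest only on the spread between these pools. In the fit, the spread of each probe is drawn toward that of all fitted probes of like signal, so a printed SE is not the probe's own spread alone. In bulk tissue, fewer cells of a type and less RNA per cell cannot be told apart. Nor can the loss of Dicer and the Cre allele at the progesterone receptor locus, since the alleles of the controls are not given.

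Between 47.0% and 49.5% of all probes were detected on an array, where detected means a detection p under 0.05 against the array's background. Dicer1 itself was modestly lower. One probe (4850059), listed as D12Ertd7e, changed by -0.43 ± 0.09 on the log2 scale (SE; limma adjusted p = 0.0233) and another by -0.22 ± 0.13, which was not called. Without any single one of control pools 7, 9 and 11, and without Dicer cKO pool 10, the first of these was not called either, with differences of -0.42, -0.45, -0.43 and -0.37. Pgr, the gene of the progesterone receptor, fell by 0.77 ± 0.14 (limma adjusted p = 0.00793). Without Dicer cKO pool 10 it differed by -0.66 and was not called.

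The family was taken up because Sult1d1 probe 2680300 was already known to be among the largest decreases in this comparison. Its differences between Dicer cKO and control uteri are therefore given as a description, with the error of a fit over all probes, and the calls of that fit are counted and not read as support.

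Of the 17 probes, 10 were detected on at least 2 arrays and entered the fit. They belong to 6 genes, Sult1a1, Sult1c2, Sult1d1, Sult2b1, Sult4a1 and Sult5a1. On all 5 arrays 6 probes were detected. The other 7 probes, of 6 gene names, were detected on no array. These are Sult1e1, the oestrogen sulfotransferase, Sult1b1 (2 probes), known for thyroid hormone, Sult2a1 and Sult2a2, known for bile acids and steroids, Sult3a1, which in mice sulfates amines, and the SULT1C1 probe. Their deposited intensities ran from 34.2 to 57.5 in Dicer cKO pools and from 35.9 to 57.7 in control pools, with no detection p under 0.105. A difference between groups could not be measured for them at this signal. A further 7 probes carry other older names of the Sult genes and fall outside the naming rule. They are of Sult2a6, Sult2a8, Sult4a1, Sult6b1 and Sult6b2, and none was detected on any array.

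**Figure D1:**
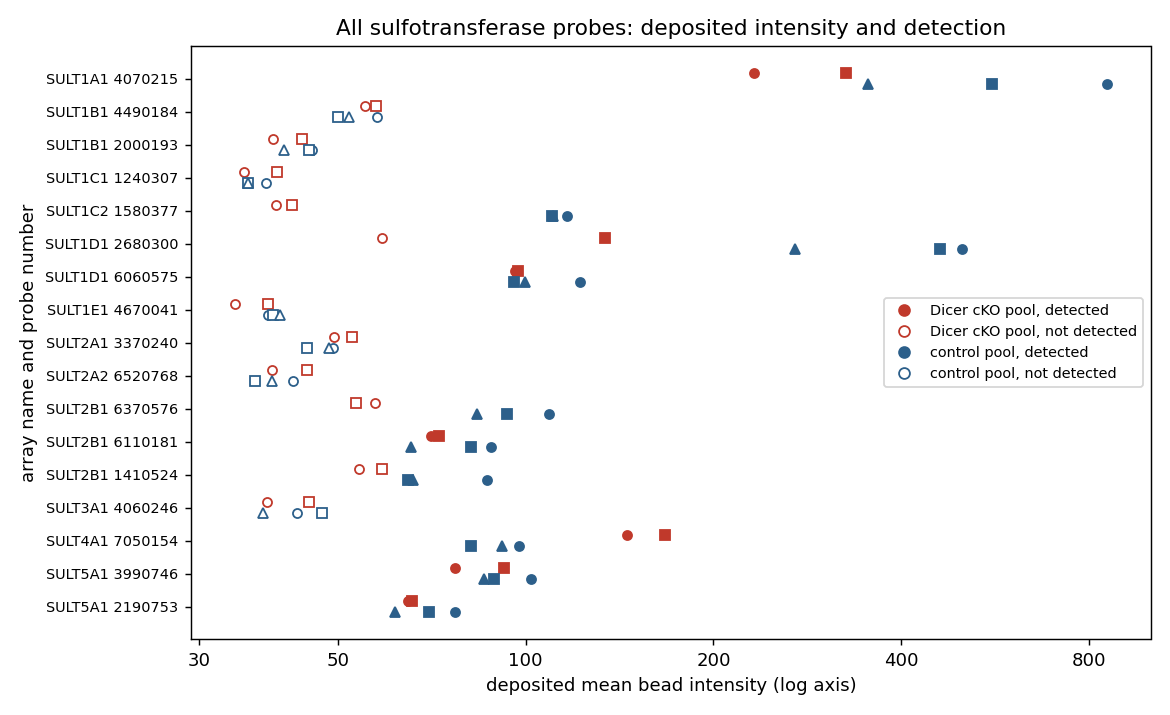
Deposited mean bead intensity (x axis, log scale) of the 17 sulfotransferase probes (y axis, array name and probe number) in each Dicer cKO pool (red: circle pool 10, square pool 12) and control pool (blue: circle pool 7, square pool 9, triangle pool 11), with open symbols where the probe was not detected. The 7 probes with open symbols throughout lie at or below 57.7, while the SULT1C2 probe and 2 of the SULT2B1 probes have open symbols in Dicer cKO pools alone.

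By the fit over all 22845 probes detected on at least 2 arrays, 4 of the 10 sulfotransferase probes were called lower, against 3.52% of all probes, and 1 was called higher, against 2.35% of all probes (limma adjusted p under 0.05). In either direction 5.87% of all probes were called. For 5 of the 10, both Dicer cKO pools lay below all control pools, against 17.1% of all probes, and for 1 both lay above, against 19.6% of all probes. The 4 others overlapped. The Sult1c2 probe and 2 of the Sult2b1 probes passed the detection filter through the control pools alone, so their difference was in part fixed by the filter. The probes called lower are 1 each of Sult1a1, Sult1c2, Sult1d1 and Sult2b1, and the probe called higher is that of Sult4a1. The other fitted probes of Sult1d1 and Sult2b1 were not called.

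**Figure D2:**
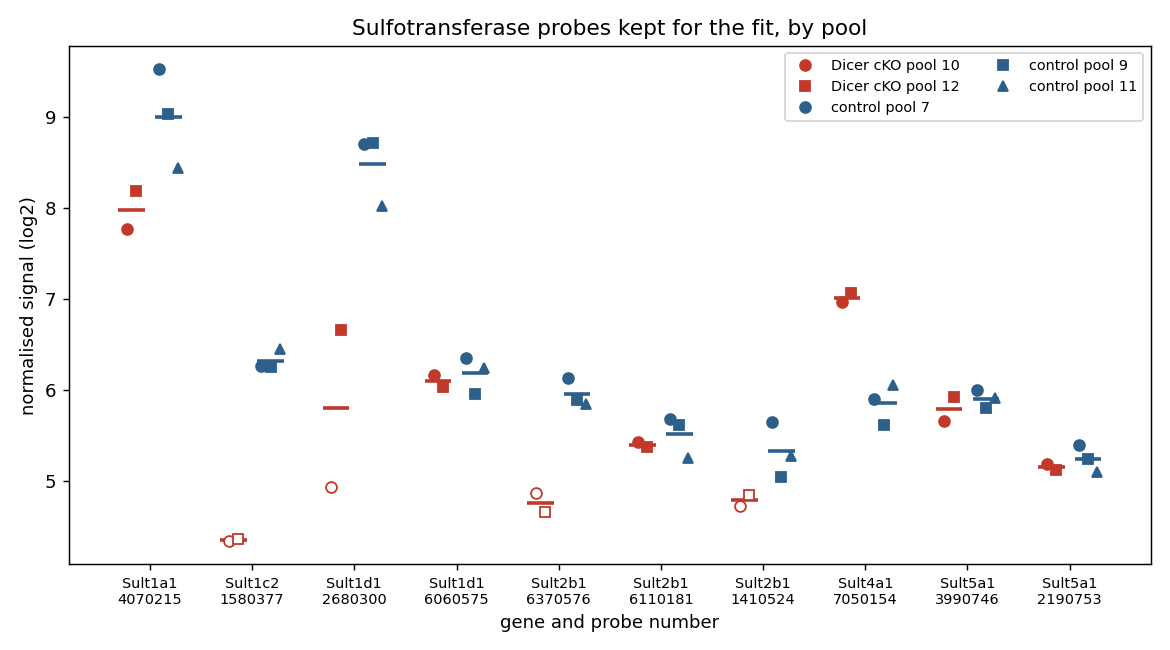
Normalised signal (y axis, log2) of the 10 sulfotransferase probes in the fit (x axis) in Dicer cKO pools (red, left) and control pools (blue, right), with a bar at each group mean and open symbols where the probe was not detected. Dicer cKO pools lie below all control pools for Sult1a1, Sult1c2, 1 probe of Sult1d1 and 2 probes of Sult2b1, and above them for Sult4a1.

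Sult1d1 encodes an enzyme known in mice for sulfating dopamine and related catecholamines. Its human counterpart is a pseudogene. Probe 2680300 had normalised log2 signals of 4.94 and 6.67 in Dicer cKO pools 10 and 12, against 8.70, 8.72 and 8.03 in control pools 7, 9 and 11. Both Dicer cKO pools were below every control pool, and they also lay far from each other. On the deposited scale the intensity was 58.9 ± 3.3 in pool 10 and 134.1 ± 4.02 in pool 12 (SE over the beads of the probe), so the gap between the Dicer cKO pools was many times the bead error. In control pools 7, 9 and 11 the intensities were 500 ± 18.2, 460.5 ± 14.3 and 270.5 ± 9.4. The probe was detected in pool 12 and in all control pools, and in pool 10 its detection p was 0.0764. The means were 5.80 in Dicer cKO and 8.48 in control pools, a difference of measured means of -2.68 ± 0.40 log2 units (SE). Since pool 10 was not detected, its signal is only a bound. With pool 10 at the lowest detected signal of its array, the Dicer cKO mean was at least 6.20-fold lower. Without pool 10 the difference was -1.81, and without pool 12 it was -3.55, which rests on the undetected pool.

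The second Sult1d1 probe (6060575) did not share this pattern. It read 6.17 and 6.04 in Dicer cKO pools and 6.36, 5.96 and 6.25 in control pools, was detected on every array, and differed by -0.08 ± 0.15. The groups overlapped. The probes' places in the transcript were not analysed here, so which probe stands for the Sult1d1 messenger RNA was not tested.

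Sult1c2 encodes a family member whose natural substrates are poorly defined. Its probe (1580377) read 4.35 and 4.37 in Dicer cKO pools 10 and 12, against 6.27, 6.26 and 6.45 in control pools 7, 9 and 11. The 3 control pools were close together, all detected, and neither Dicer cKO pool was detected, with detection p of 0.776 and 0.654. Measured means differed by -1.97 ± 0.14 log2 units. Because the Dicer cKO signal is only background, the fold is a lower bound. It was at least 2.50-fold lower in Dicer cKO uteri, computed against the lowest detected signal of each Dicer cKO array. Leaving out any pool gave a difference between -1.99 and -1.92, while an offset of 50 in the background correction in place of 16, which compresses dim signals, gave -1.07.

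Sult1a1, the main phenol sulfotransferase, was detected on all 5 arrays. Its single probe (4070215) read 7.78 and 8.19 in Dicer cKO pools 10 and 12, against 9.52, 9.03 and 8.44 in control pools 7, 9 and 11. The groups did not overlap, but control pool 11 lay only a little above Dicer cKO pool 12, and the control pools differed among themselves by more than this gap. The difference was -1.02 ± 0.25 log2 units, or 2.02-fold lower, and was called by the fit. The call was lost in 8 of 17 alternatives, among them those without control pool 7, control pool 9, Dicer cKO pool 10 or Dicer cKO pool 12, where the difference ran from -1.22 to -0.76.

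The start regions of these 3 genes, each with a probe called lower in Dicer cKO uteri, are shown to compare their letters. Each is the 250 bases before an annotated gene start, from RefSeq on GRCm38.p6, written 5′ to 3′ along the gene. Motifs were searched on both strands, with capitals marking matches: GGTCA, a half-site of the oestrogen receptor, GGTCA and TGACC parted by NNN, its full element, which holds the half-site on each strand, TGTTCT, a half-site of the progesterone receptor, TGTTTAC, the core of FOXA factors such as the gland factor FOXA2, and TATAAA, the TATA box.
Sult1d1, chr5:87569007-87569256, minus strand: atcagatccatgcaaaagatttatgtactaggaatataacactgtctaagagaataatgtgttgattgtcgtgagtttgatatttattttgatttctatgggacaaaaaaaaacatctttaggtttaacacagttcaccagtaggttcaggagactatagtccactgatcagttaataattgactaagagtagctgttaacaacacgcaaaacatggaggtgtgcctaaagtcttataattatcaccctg
Sult1c2, chr17:53845959-53846208, minus strand: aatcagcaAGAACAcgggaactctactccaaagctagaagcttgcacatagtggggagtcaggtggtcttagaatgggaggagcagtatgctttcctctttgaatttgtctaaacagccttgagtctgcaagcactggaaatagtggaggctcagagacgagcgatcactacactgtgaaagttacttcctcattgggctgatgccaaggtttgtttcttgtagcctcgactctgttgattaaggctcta
Sult1a1, chr7:126676419-126676668, minus strand: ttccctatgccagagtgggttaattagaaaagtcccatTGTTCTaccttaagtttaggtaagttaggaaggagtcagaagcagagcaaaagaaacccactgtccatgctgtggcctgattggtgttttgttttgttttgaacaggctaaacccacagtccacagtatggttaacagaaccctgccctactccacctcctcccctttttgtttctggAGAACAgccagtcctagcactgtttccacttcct

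The Sult1d1 window held none of these letters. TGTTCT was found once in the Sult1c2 window, read on the opposite strand and beginning 242 bases before the start, and in the Sult1a1 window at 212 bases and, on the opposite strand, 34 bases before the start. This motif stood in 16.1% of all 32851 promoter windows of the same length. GGTCA, present in 35.2% of them, the full element, present in 0.0639%, TGTTTAC (3.17%) and TATAAA (12.4%) were in none of the 3 windows. Of the 12 gene names, 9 had an entry, with 11 windows. GGTCA was in windows of Sult1b1 and Sult1e1, TGTTCT also in windows of Sult1b1 and SULT1C1, and TATAAA in that of SULT1C1. These matches describe the letters of short windows and say nothing of binding.

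Sult2b1, which sulfates cholesterol and pregnenolone and is best known from skin, was read by 3 probes that did not agree in size. Probe 6370576 read 4.87 and 4.66 in Dicer cKO pools 10 and 12, against 6.13, 5.90 and 5.85 in control pools 7, 9 and 11, and was detected in every control pool and no Dicer cKO pool. Both Dicer cKO pools lay below every control pool, with measured means that differed by -1.19 ± 0.15. The signal was at least 1.94-fold lower in Dicer cKO uteri on this scale. The fit called this probe, which had passed the detection filter through the control pools alone, so its difference was in part fixed by the filter. With an offset of 50 the measured means differed by -0.65, or -0.58 with normexp by maximum likelihood, and without background correction by -0.73.

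The second Sult2b1 probe (1410524) read 4.73 and 4.85 in Dicer cKO pools, against 5.65, 5.05 and 5.28 in control pools. It too was detected in control pools alone, at least 1.25-fold lower in Dicer cKO uteri, with measured means that differed by -0.53 ± 0.18. It was not called. The third probe (6110181) was detected on all arrays. It read 5.43 and 5.38 in Dicer cKO pools and 5.69, 5.62 and 5.26 in control pools, with overlapping groups and a difference of -0.12 ± 0.16. The RefSeq promoter table holds 2 start regions for Sult2b1, neither with any of the motifs above. Which transcript each probe reads was not tested.

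Sult4a1, a brain-enriched member with no established substrate, was the only member called higher. Its probe (7050154) read 6.97 and 7.07 in Dicer cKO pools 10 and 12, against 5.90, 5.62 and 6.06 in control pools 7, 9 and 11. Both Dicer cKO pools were above every control pool and close to each other. The difference was 1.16 ± 0.16 log2 units, or 2.23-fold higher, and it stayed between 1.04 and 1.26 with any pool left out. Among the processing alternatives it fell to 0.74 with normexp by maximum likelihood and an offset of 50, and to 0.85 without background correction. The deposited intensities were 145.1 and 167.1 in Dicer cKO pools and 97.5, 81.9 and 91.8 in control pools, detected on all 5 arrays. Sulfotransferase probes detected on no array reached 57.7. Another probe listed under an older name of Sult4a1 was not detected on any array. Of 8 neuron markers, 3 were measured and none was called. The summed normalised signal of these 3 was 182.2 to 189.2 in Dicer cKO pools and 194.9 to 246.1 in control pools. Tubb3, Snap25, Elavl4 and Nefl were not detected.

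Sult5a1, a member with hardly any known function, was read by 2 probes detected on all arrays. Probe 3990746 read 5.66 and 5.93 in Dicer cKO pools and 6.01, 5.80 and 5.91 in control pools, a difference of -0.11 ± 0.15. Probe 2190753 read 5.19 and 5.13 in Dicer cKO pools and 5.40, 5.24 and 5.10 in control pools and differed by -0.09 ± 0.14. Neither was called and the groups overlapped for both.

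**Figure D3:**
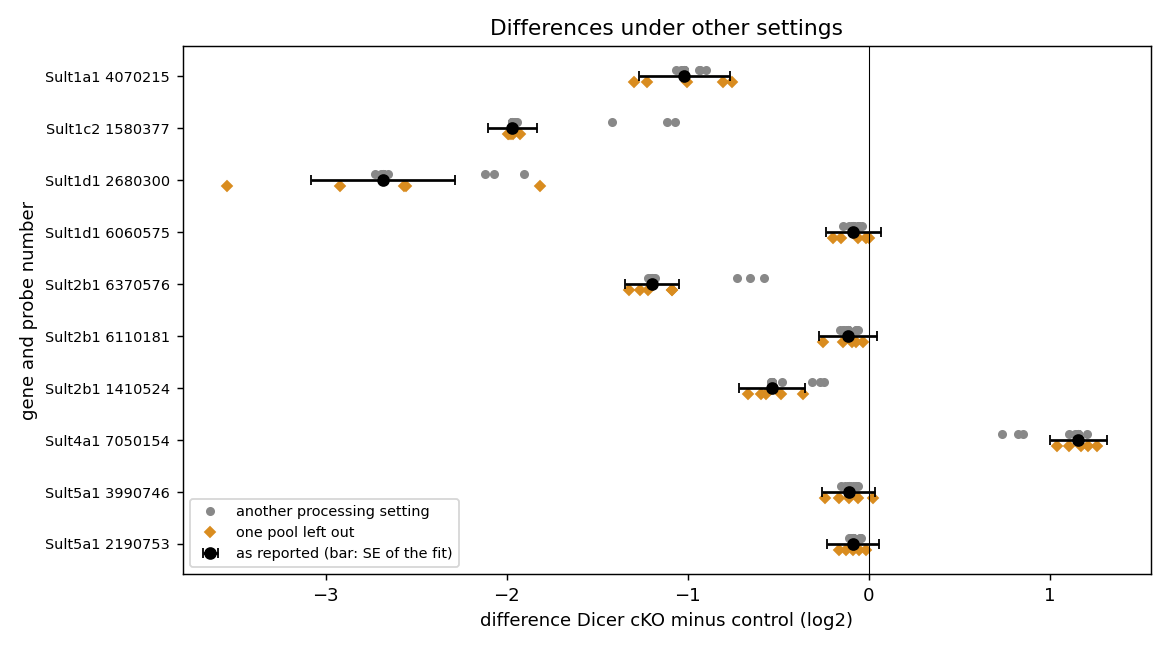
Difference between Dicer cKO and control pools (x axis, log2, Dicer cKO minus control) for the 10 sulfotransferase probes (y axis), as reported (black, with the SE of the fit), under other processing settings (grey) and with 1 pool left out (orange diamonds). Sult1d1 probe 2680300 moves most with the pool left out, between -3.55 and -1.81, and the Sult1c2 probe moves mainly with the background offset.

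Sult1d1 lies between Sult1b1 and Sult1e1 in a group of related genes on chromosome 5, flanked by glucuronosyltransferase genes on one side and casein genes on the other. Of the 6 protein-coding genes on each side, which include Sult1b1 and Sult1e1, all were on the array. The 1 detected neighbour was the casein gene Csn1s2b, by 1 of its 4 probes and on 2 arrays, with a difference of 0.12 ± 0.16 that was not called.

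The genes whose normalised log2 signals followed Sult1d1 probe 2680300 most closely over the 5 pools were Smpdl3a (Pearson r = 0.998), Txnip (0.998), Serpina1d (0.998), Tes (0.997) and Ephx1 (0.997). With only 5 points that fall into 2 groups, 50 of 15730 genes had an r over 0.99. The Sult1d1 probe was not detected in pool 10, so each r rests in part on an undetected signal. Serpina1d is of the antitrypsin family and was detected in 1 of the 2 Dicer cKO pools. It read 4.74 and 5.96 in Dicer cKO pools and 7.40, 7.25 and 6.77 in control pools. Its signal in pool 12 lay between pool 10 and the controls as for Sult1d1, which follows from the choice by r. Ephx1, the microsomal epoxide hydrolase, read 9.46 and 9.88 in Dicer cKO pools and 10.26, 10.32 and 10.18 in control pools.

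The supply of PAPS was described with a list of genes for sulfate uptake, PAPS synthesis, transport and breakdown and sulfur oxidation. Of 11 measured, 2 fell, against 3.88% of all 15733 genes, none rose, against 2.68% of all genes, and 9 were not called. The list's median difference was -0.05, and that of all genes 0.01. Cdo1, which starts the oxidation of cysteine toward taurine and sulfate, read 6.67 and 6.99 in Dicer cKO pools and 9.06, 8.38 and 8.13 in control pools, and fell by 1.69 ± 0.23 (limma adjusted p = 0.00175). Tst, the sulfur transferase rhodanese, fell by 0.52 ± 0.12 (limma adjusted p = 0.0292). Without control pool 7 or 9, or Dicer cKO pool 10 or 12, it was not called, at -0.51, -0.46, -0.45 and -0.60. The PAPS synthase genes, named after their values were seen, differed by 0.07 ± 0.08 (Papss1) and -0.27 ± 0.13 (Papss2) and were not called.

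Among 11 measured sulfatases and activators, 2 rose, against 2.68% of all genes, 1 fell, against 3.88% of all genes, and 8 were not called (median -0.07). The arylsulfatase family gene Arsi rose by 0.91 ± 0.11 (limma adjusted p = 0.000739), with 2 further probes at 0.65 and 0.70. Sulf2, which trims heparan sulfate outside the cell, rose by 0.59 ± 0.10 (limma adjusted p = 0.00669); without Dicer cKO pool 10 it was not called, at 0.55. Arsj fell by 0.75 ± 0.11 (limma adjusted p = 0.00373). Steroid sulfatase was on the list, but no probe of the array was matched to its name.

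Golgi sulfotransferases act on sugars and proteins rather than on small molecules. Of 23 measured, 2 fell, against 3.88% of all genes, 1 rose, against 2.68% of all genes, and 20 were not called (median 0.04). Chst9, which sulfates glycan ends, was detected in all 3 control pools and in no Dicer cKO pool, so it passed the filter through the controls alone. Its signal was at least 1.41-fold lower in Dicer cKO uteri, with measured means that differed by -0.94 ± 0.16 (limma adjusted p = 0.00681). With an offset of 50 they differed by -0.46, and without Dicer cKO pool 10 Chst9 was not called (-0.94). Of the heparan sulfate enzymes, Hs3st3b1 rose by 0.77 ± 0.10 (limma adjusted p = 0.00176) and Hs3st1 fell by 0.49 ± 0.12 (limma adjusted p = 0.0369). Hs3st1 was not called without control pool 7 (-0.42) or 9 (-0.49) and without Dicer cKO pool 10 (-0.42) or 12 (-0.57).

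Of 25 measured genes for other enzymes that conjugate small molecules, 8 fell, against 3.88% of all genes. None rose, against 2.68% of all genes, and 17 were not called. Ugt1a6a, Ugt1a9 and Ugt1a10 are counted separately among the 8. Without Dicer cKO pool 10 fewer of the 25 were called lower, and so were fewer of all probes. The list's median difference was -0.27, and that of all genes 0.01. Ugt1a6a, a glucuronosyltransferase of phenols, fell by 1.06 ± 0.16 (limma adjusted p = 0.00321) and Ugt1a9 by 0.80 ± 0.12 (limma adjusted p = 0.00313). The Ugt1a genes share the larger part of their transcripts, so their probes may not tell them apart. Of 2 further Ugt1a6a probes, 1 differed by -1.06 and was called, and 1 differed by 0.09 and was not. The glutathione transferase genes Gsto1 and Gstm2 fell by 0.96 ± 0.17 (limma adjusted p = 0.00809) and 0.77 ± 0.14 (limma adjusted p = 0.0112). Without Dicer cKO pool 10 these 4 were not called, at -0.90, -0.70, -0.82 and -0.76, and Gstm2 was not called without pool 12 either (-0.78).

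**Figure D4:**
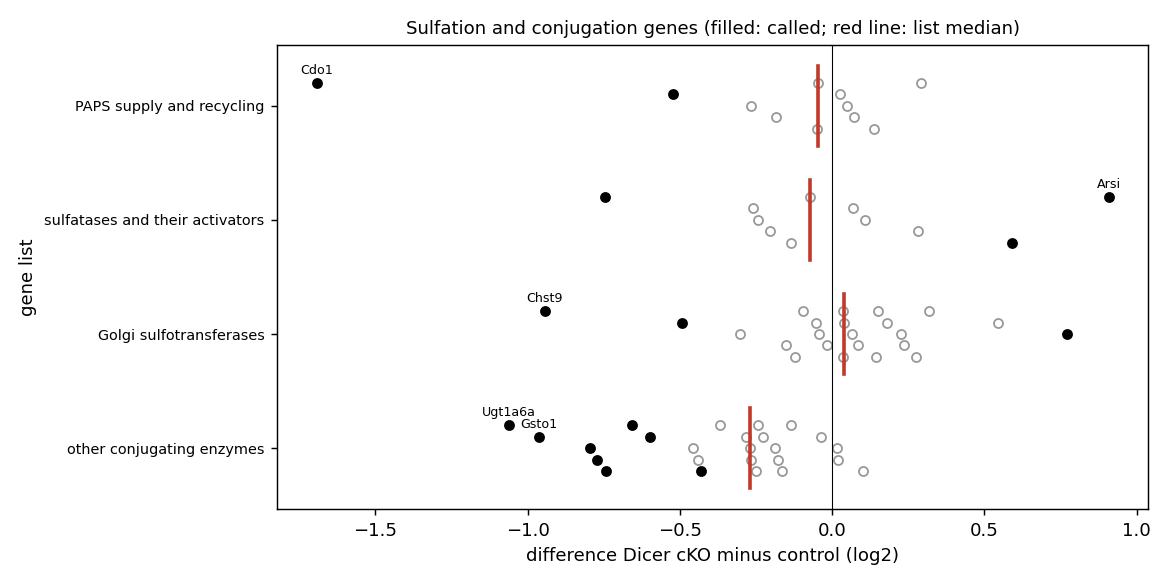
Difference between Dicer cKO and control pools (x axis, log2, Dicer cKO minus control) of the measured genes of 4 lists (y axis), with filled points for genes called by limma and a red line at each list's median. The conjugating enzymes lie mostly below 0, with a median of -0.27, while the 3 sulfation lists have medians between -0.07 and 0.04.

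Markers of the cells in which such enzymes may be made were also examined. Of all genes, 3.88% were called lower and 2.68% higher, the background for each marker count here and in the next paragraph. Of 20 measured markers of uterine epithelium, 7 fell and 5 rose. Epcam and Ehf were not detected. The summed normalised signal of the list was 17200 to 17520 in Dicer cKO pools and 19340 to 24150 in control pools. The bright markers Msx1 and Krt8 differed by -0.41 ± 0.12, not called, and -0.37 ± 0.09, called, and Cldn3 (-1.48 ± 0.17) and Rab25 (-1.20 ± 0.10) fell. Of 8 measured gland markers 6 fell and none rose, with a summed signal of 1701 to 2211 in Dicer cKO pools and 4744 to 5287 in control pools. Foxa2, counted among the 6, was detected in all control pools and in no Dicer cKO pool. It passed the filter through the controls alone, and its signal was at least 1.12-fold lower in Dicer cKO uteri. Cxcl15, detected in 1 of the 2 Dicer cKO pools, fell by 2.70 ± 0.19 and Cldn10 by 2.23 ± 0.12, and Prss28 and Prss29 were not detected.

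Among oviduct and ciliated cell markers, Ovgp1 fell by 2.57 ± 0.39, the other measured markers Foxj1 and Pax8 were not called, and Dnah5, Dnah9 and Tekt1 were not detected. Of 7 measured adipocyte markers, 3 fell and none rose, with a summed signal of 3750 to 4661 in Dicer cKO pools and 5005 to 6936 in control pools. The other 4 were not called, and Fabp4, Plin1 and Retn were not detected. Of 11 measured myeloid markers, 4 rose and none fell. The sums were 4117 to 5077 in Dicer cKO pools and 3161 to 3672 in control pools. Of 15 stromal markers, 4 fell and none rose, with sums of 43140 to 48670 in Dicer cKO pools and 51390 to 53020 in control pools. The largest decreases were those of Vim (-0.82 ± 0.12) and Thy1 (-0.79 ± 0.11), while the bright Col1a1 and Dcn were not called. None of 10 smooth muscle markers was called. Of 10 hepatocyte markers, 9 were not detected, Alb and Apoa1 among them, and Cyp2e1 was the exception, with log2 signals of 4.74 and 6.12 in Dicer cKO pools and 8.11, 8.28 and 6.15 in control pools (not called). The part of these markers' cells in the sulfotransferase differences was not tested.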

How the data were processed

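Total RNA of pooled uteri was read on Illumina bead arrays, 1 pool per array. The labels name a human array, while the gene names in the files are mouse names, which were used. The submitters' processing notes name BeadStudio, with no version. For each probe the authors deposited the mean intensity of its beads on a linear scale, neither background-subtracted nor normalised between arrays (array medians 57.5 to 63.0), with the SD over the beads and the number of beads. The deposited detection score is a fraction from 0 to 1 that rises with signal, and 1 minus it was used as the detection p. A deposited table of the whole series (5 columns) was not used, since its row numbers match no column of the array files.

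Background correction from the detection p with an offset of 16, quantile normalisation and log2 transformation followed limma's neqc (limma 3.58.1, R 4.3.3). Of 45281 probes, the 22845 detected (p under 0.05) on 2 or more arrays were fitted with lmFit and eBayes with an intensity trend, 2-sided, with no covariate; a probe was called when its p, adjusted over all of them by Benjamini and Hochberg, was under 0.05. Lists used the brightest probe of each of 15733 genes, with names updated through a RefSeq table (GRCm38.p6). Folds for probes detected on no array of a group are lower bounds against the mean of the lowest detected signals. Summed marker signals add the normalised linear values of the measured members. Replicate arrays differed by more than their bead error. No slide or scan information was found, so no batch could be tested.

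The members and lists were chosen with earlier results of these data known. The rule named every fitted sulfotransferase probe, up to 4 called members of each list by size, the 2 brightest markers and the 2 called ones with the largest difference of a list, the 5 genes most like Sult1d1 and its neighbours; not every gene it named is printed. Alternatives changed the background correction, offset, normalisation, detection filter, trend, spread estimate, probe choice and array weights, or left out 1 pool. The number of arrays limits the precision. Protein sequences were not used here.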

Additional observations from a re-analysis of the deposited data

How the results depend on the processing

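In 17 alternatives, the called probe of Sult4a1 kept its direction and call, with differences from 0.74 to 1.26. Those of Sult1c2 and Sult2b1 differed by -1.99 to -1.07 and -1.32 to -0.58 in the 16 that fitted them. Both passed the filter through the controls alone and were not fitted where detection on all arrays was required, so their calls in the others say nothing of stability. The smaller sizes came with an offset of 50 or without background correction. Sult1d1 probe 2680300 was not called with a robust spread estimate, where the difference is the same -2.68 and the spread of single probes counts for more. Its SE was then 0.66 in place of 0.40, and that of Sult1a1 was 0.35 in place of 0.25. With that setting 2 sulfotransferase probes were called lower, and with detection required on all 5 arrays 1, since the probes of Sult1c2, Sult1d1 and 2 of Sult2b1 then leave the fit. Under the other 15 alternatives 3 or 4 were called lower, and 1 was called higher under every one of the 17. Probes near 0 changed sign. With 1 pool left out, Sult1d1 6060575 ranged from -0.20 (without control pool 9) to 0.0014 (without control pool 7), and Sult5a1 3990746 from -0.24 (without Dicer cKO pool 12) to 0.024 (without pool 10).

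Over all probes, 804 were called lower and 536 higher, and 349 were higher without the intensity trend (574 lower). With 1 pool left out, 252 to 723 were lower and 104 to 512 higher, lowest without Dicer cKO pool 10. Of the Golgi sulfotransferases, 1 was lower with median scaling, with detection on all arrays and without the trend, and 0 to 2 with a pool left out. Of the PAPS list 1 was lower without the trend and 1 to 2 with a pool left out. Of the sulfatases 1 to 2 were lower and 1 to 2 higher with a pool left out, and of the other conjugating enzymes 2 to 9 were lower. The cause was not tested. Leaving out a Dicer cKO pool leaves 1, assumed to vary like the controls. No paired analysis was possible because the groups share no pool number. Signals near background limit what the dim probes can show.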
